A study of Arabidopsis thaliana with 12 samples.

Results

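The genes described here are 60 Arabidopsis loci that encode intracellular receptors with a TIR domain (the TNL family and its truncated relatives). They were taken from the count table by locus number, without the sensors RPS4 and RRS1, and 53 of the 60 had enough reads to be tested among 19167 of 32678 genes. RNA was sequenced from leaves of Col-0 wild type and of camta3-D, a line carrying a dominant mutant allele of the transcription factor CAMTA3. The allele is an amino acid change, so read counts of CAMTA3 do not check the genotype labels. Each genotype was studied 1 h after infiltration of 100 nM flg22, a bacterial flagellin peptide, and 4 h after infiltration of the leaf bacterium Pst DC3000 (P. syringae pathovar tomato) delivering the effector AvrRpm1 or AvrRps4 at an OD600 of 0.001. This gives 6 groups with 2 libraries each, and the labels do not say whether the replicates were separately grown, although the study describes its RNA-seq data as coming from independent experiments. There is no untreated or mock-infiltrated library, so every level below is a level in challenged leaves, and flg22 and Pst differ in time as well as in elicitor.

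TNL receptors sense pathogen effectors inside the cell through a leucine-rich repeat region, and their TIR domains are enzymes that break down NAD+ into small signal molecules. These molecules act on complexes of the lipase-like protein EDS1 with PAD4 or SAG101, which in turn engage the helper receptors ADR1 and NRG1 to drive calcium influx, defence gene expression and, often, cell death. Many TNL genes sit in tandem clusters of similar copies, and their level is kept in check because an excess of some of them, SNC1 being the best studied, is enough to cause autoimmunity. CAMTA3 is a calmodulin-binding factor that recognises DNA with the core CGCG or CGTG. Plants that lack it show autoimmunity, and whether it acts on defence genes as an activator or as a repressor is debated.

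The 12 libraries held 22769687 to 26303024 reads assigned to genes, and 20749 to 21147 genes had at least 1 read. The share of reads that aligned to several places was 2.56% to 3.43% in 11 libraries and 7.78% in camta3-D AvrRpm1 replicate 2, so results that rest on this library are also given without it. Marker genes of leaf mesophyll (photosynthesis genes) summed to 26300 to 49800 CPM (read counts scaled to a common library size, with TMM factors) and root markers to 5.85 to 40.5 CPM with up to 4 of 6 at 0, as the leaf label states. Guard cell markers summed to 24.8 to 55.3 CPM, phloem markers to 382 to 636 CPM, epidermis markers to 608 to 1500 CPM and dividing cell markers to 31.3 to 52.0 CPM, with no marker of these 4 lists at 0. Summed guard cell markers were lower in camta3-D than in wild type after flg22 (24.8 and 25.2 CPM against 39.2 and 44.6 CPM). Of the 6 genes 2 were called lower, against 5.59% of all genes. Their sums were also lower in camta3-D after AvrRpm1 (34.5 and 44.7 CPM against 51.4 and 52.0 CPM) and AvrRps4 (38.3 and 42.2 CPM against 45.6 and 55.3 CPM). There 0 and 1 of the 6 were called, and MYB60 (0.11) and SLAC1 (0.14) had positive log2 differences. The summed mesophyll and dividing cell markers were higher in each camta3-D library than in each wild-type library of the same treatment. Of single genes, 0 of 5 dividing cell markers were called in any treatment. Among mesophyll markers only PSBO1 after AvrRps4 was called, and LHCB2.1 was negative after AvrRpm1 (-0.26) and AvrRps4 (-0.12). The part of these markers in the results was not tested. In whole leaf tissue, fewer cells that express a gene and less RNA per cell cannot be told apart.

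Of the 60 loci, 51 lie in 14 clusters or neighbouring pairs. In 14 members more than 20% of the 50-base stretches of the exons recur elsewhere in the genome, with a highest share of 66.17% in VICTR, and 26 members have no such stretch. Reads that aligned to several places were counted apart from the genes. Counts of the first kind, which include SNC1, RPP4, RPP5, RPP1 and TIR, may therefore be too low. SOC3 and CHS1 are transcribed from opposite strands of the same stretch of chromosome 1 and share 48.31% and 90.48% of their exon length. The strand setting of the counting was not given in the sources used here, so reads of these 2 genes cannot be told apart with certainty.

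The sequences of 250 bases upstream of 5 members are shown because these members carry the main patterns: RMG1, SNC1 and TN3 were lower in camta3-D after flg22, AT5G41740 had the largest log2 difference between Pst and flg22 in wild type, and AT1G63750 was higher in camta3-D throughout. They are read 5′ to 3′ on the strand of the gene from the RefSeq genome of build TAIR10.1, whose gene models were used for all coordinates here, and no other gene model overlaps these windows. Capitals mark the CAMTA cores CGCG and CGTG, the latter also read as CACG on the other strand. The windows are chr4:6810853-6811102 (plus strand) for RMG1, chr4:9505973-9506222 (minus strand) for SNC1, chr1:24601783-24602032 (plus strand) for TN3, chr5:16688376-16688625 (plus strand) for AT5G41740 and chr1:23650590-23650839 (plus strand) for AT1G63750.
RMG1: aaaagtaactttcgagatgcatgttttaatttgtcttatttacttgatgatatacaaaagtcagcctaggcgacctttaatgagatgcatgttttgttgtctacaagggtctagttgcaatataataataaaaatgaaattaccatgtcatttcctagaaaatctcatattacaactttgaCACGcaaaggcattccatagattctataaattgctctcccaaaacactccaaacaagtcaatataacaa
SNC1: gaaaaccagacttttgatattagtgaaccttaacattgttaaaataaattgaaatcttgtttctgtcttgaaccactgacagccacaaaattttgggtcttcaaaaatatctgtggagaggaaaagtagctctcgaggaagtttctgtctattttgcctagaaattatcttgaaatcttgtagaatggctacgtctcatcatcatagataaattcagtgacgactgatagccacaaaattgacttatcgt
TN3: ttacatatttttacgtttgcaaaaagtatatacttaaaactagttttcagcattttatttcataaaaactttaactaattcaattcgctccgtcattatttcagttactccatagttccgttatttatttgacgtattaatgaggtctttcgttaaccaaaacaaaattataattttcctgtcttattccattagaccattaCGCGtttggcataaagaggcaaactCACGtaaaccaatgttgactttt
AT5G41740: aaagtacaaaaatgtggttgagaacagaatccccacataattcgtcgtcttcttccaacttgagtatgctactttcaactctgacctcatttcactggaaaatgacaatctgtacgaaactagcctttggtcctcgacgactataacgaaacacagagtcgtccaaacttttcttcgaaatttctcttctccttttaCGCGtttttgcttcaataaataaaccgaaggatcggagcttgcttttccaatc
AT1G63750: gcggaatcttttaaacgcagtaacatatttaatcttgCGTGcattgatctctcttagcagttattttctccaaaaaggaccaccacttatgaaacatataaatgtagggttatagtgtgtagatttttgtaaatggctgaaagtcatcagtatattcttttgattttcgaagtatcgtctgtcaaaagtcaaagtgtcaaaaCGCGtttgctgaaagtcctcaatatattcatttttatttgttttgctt
SNC1 has neither core in this window, and TN3 and AT1G63750 have both. RMG1 has a CGTG core and AT5G41740 a CGCG core. Over all members, CGCG was present upstream of 10 of 60 (16.7%, against 10.1% of 27443 nuclear protein-coding genes) and CGTG upstream of 37 (61.7% against 45.6%). The W-box core TTGAC, the letters bound by WRKY factors and also read as GTCAA, was present upstream of 30 of 60 members, against 44.9% of those genes. Among the 22 members that were lower in camta3-D in at least 1 treatment, 1 window held CGCG (4.55%) and 14 held CGTG (63.6%), and among the 31 tested members that were lower in none, 7 held CGCG (22.6%) and 17 held CGTG (54.8%). A CACGTG sequence counts as CGTG on each strand, and a match describes letters, not binding.

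The summed level of the 60 members was highest after flg22 and lowest in camta3-D leaves treated with AvrRpm1. The libraries held 4264 and 4572 CPM of member reads in wild type and 3073 and 3366 CPM in camta3-D after flg22. After AvrRpm1 the sums were 1932 and 1590 CPM in wild type and 1076 and 1254 CPM in camta3-D. After AvrRps4 they were 1938 and 2621 CPM in wild type and 2202 and 2672 CPM in camta3-D. The genotypes did not overlap after flg22 or AvrRpm1, where camta3-D was lower, and overlapped after AvrRps4.

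**Figure D1:**
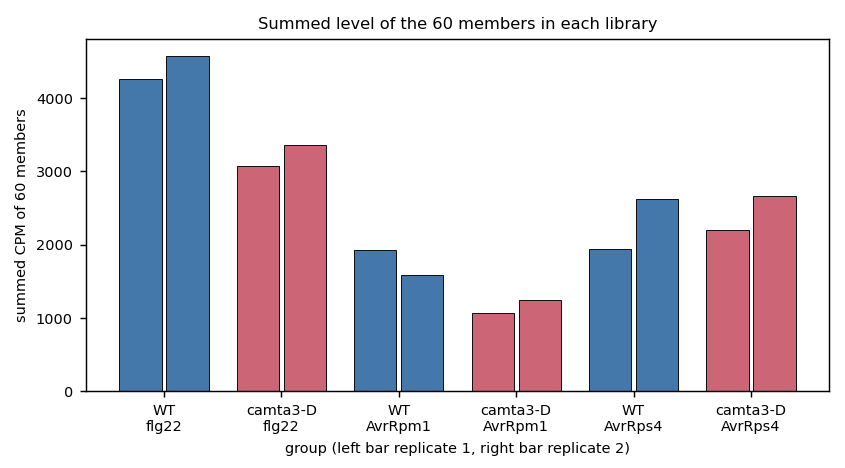
Summed CPM of the 60 TIR-type receptor genes (vertical axis, from 0) in each of the 12 libraries, wild type in blue and camta3-D in red, 1 bar a library. The wild type flg22 libraries are the highest at 4264 and 4572 CPM and the camta3-D AvrRpm1 libraries the lowest at 1076 and 1254 CPM.

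Per kilobase of exon, the median tested member stood at 9.25 CPM per kb in wild type after flg22, at 3.85 after AvrRpm1 and at 5.59 after AvrRps4, and in camta3-D at 6.22, 3.17 and 6.61 in the same order. Over all tested genes this median was 6.16 to 6.78 in the 6 groups. TIR, which encodes a TIR domain with no receptor part, had the highest level per kb among the members in 5 of the 6 groups, at 174 CPM per kb in wild type after AvrRpm1, and AT5G41740 led in wild type after flg22 at 120 CPM per kb. The lowest levels belonged to AT4G16940, AT4G16920, AT5G38340 and RMG1, which were the 3 lowest in varying order. The 5 members with the highest level per kb made up 41.1% to 57.6% of the tested members' summed level per kb.

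In the Pst groups most members shifted in the same direction between replicates, by the largest median in wild type AvrRps4. In wild type AvrRps4, 49 of 53 tested members were higher in replicate 2, with a median log2 difference of 0.38, whereas over all tested genes 50.7% were higher and the median was 0.004. In wild type AvrRpm1, 38 of 53 members were lower in replicate 2, with a median log2 difference of -0.18 (all genes -0.015). In camta3-D, 40 were higher in replicate 2 after AvrRpm1 (median 0.24, all genes -0.01) and 39 after AvrRps4 (0.19, all genes 0.001). After flg22 the medians were 0.043 in wild type and 0.082 in camta3-D, against 0.005 and 0.03 over all genes.

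The question of the genotype comparison was how the dominant camta3 allele alters the early response to a pattern and to effectors. After flg22, 16 of 53 tested members (30.2%) were lower and 3 (5.66%) higher in camta3-D, against a background of 5.59% of all genes lower and 5.21% higher. A member is called where edgeR's quasi-likelihood p, adjusted by Benjamini and Hochberg's method across the 19167 genes (edgeR adjusted p), was under 0.05. The members' median log2 fold change was -0.25, and that of all tested genes 0.045. With the members over 20% repeated stretches left out, an alternative chosen after seeing the data, 8 of 39 were lower and 3 higher, and some of the 39 still share shorter stretches or, as SOC3 and CHS1, overlap.

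RMG1 (AT4G11170, chr4:6811103-6817339, plus strand), a TNL gene known to be induced by flagellin and controlled by DNA methylation, differed most. It stood at 31.5 and 33.6 CPM in wild type and at 0.532 and 0.362 CPM in camta3-D after flg22, so that the camta3-D libraries held almost no reads of a gene that was well expressed in both wild-type libraries. Its 1379 wild-type reads faced 17 in camta3-D, a ratio of 73.0 with a 95% counting interval of 45.4 to 126, and the fitted log2 fold change was -6.17 (edgeR adjusted p = 0.00132). The call was made with each of the 4 libraries left out.

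AT1G56520, a neighbour of the white rust resistance gene WRR4 and listed by the study among its immediate-early genes, stood at 49.7 and 58.7 CPM in wild type and at 8.03 and 6.37 CPM in camta3-D after flg22. The groups were far apart, with a log2 fold change of -2.91 ± 0.30 (SE, n = 2 and 2, edgeR adjusted p = 0.00237). WRR4 itself, next to it, stood at 298 CPM in each wild-type library and at 301 and 336 CPM in camta3-D, a log2 difference of 0.10 (edgeR adjusted p = 0.765). AT1G56540, the other tested neighbour, was at 17.7 and 26.2 CPM in wild type and 16.6 and 17.6 CPM in camta3-D, and was not called.

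In the cluster on chromosome 4 that holds SNC1, RPP4 and RPP5, 4 of 7 tested genes were lower in camta3-D after flg22 and the cluster's median log2 fold change was -1.06. SNC1 (AT4G16890, chr4:9500271-9505972, minus strand), whose activated allele causes autoimmunity, stood at 353 and 440.5 CPM in wild type and at 193 and 187 CPM in camta3-D, with a log2 fold change of -1.06 (edgeR adjusted p = 0.00909). RPP4, which gives resistance to downy mildew, was at 217 and 207 CPM against 104 and 94.9 CPM, and its log2 fold change was -1.09 (edgeR adjusted p = 0.00938). Each camta3-D library was below each wild-type library for both genes, as these values show without a further test. RPP5 (log2 fold change -1.09) and AT4G16960 (-1.77) were called as well. The remaining 3 genes of the cluster, AT4G16900, AT4G16920 and AT4G16940, were not, and the latter pair stood at 1.38 CPM or less in every flg22 library.

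The RPP1 cluster on chromosome 3 had 3 of 4 members lower. AT3G44400 stood at 65.5 and 75.0 CPM in wild type and 20.9 and 26.3 CPM in camta3-D (log2 fold change -1.57, edgeR adjusted p = 0.0071). AT3G44630, on the immediate-early list, was at 204 and 199 CPM against 91.1 and 89.6 CPM, with a log2 fold change of -1.16 (edgeR adjusted p = 0.0174). RPP1, the downy mildew resistance homologue, was at 75.0 and 77.3 CPM against 58.7 and 66.7 CPM, and its log2 difference of -0.28 was not past the threshold (edgeR adjusted p = 0.378).

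SOC3 and CHS1, the TNL and TIR-NB genes that act together in the autoimmunity of the chs1 mutant, were both lower. SOC3 (AT1G17600, chr1:6052936-6058114, minus strand) stood at 58.4 and 74.4 CPM in wild type and 19.7 and 22.2 CPM in camta3-D, and CHS1 (AT1G17610, chr1:6054922-6058357, plus strand) at 14.4 and 17.0 CPM against 4.52 and 4.45 CPM. Both genes fell to about the same degree, with log2 fold changes of -1.66 and -1.80 (edgeR adjusted p = 0.00404 and 0.00386), but their overlap on opposite strands means that the 2 values are not independent. TN2 next to them, a TIR-NB gene, was too low to test, with 16 reads in wild type and 0 in camta3-D after flg22, which is at least 4.8-fold lower when the floor is set at 3 counts over the group.

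TN3, another TIR-NB gene, fell from 186 and 211 CPM in wild type to 53.5 and 40.2 CPM in camta3-D (log2 fold change -2.08, edgeR adjusted p = 0.00891). AT5G41750 was at 175 and 239 CPM against 41.9 and 44.3 CPM (log2 fold change -2.26, edgeR adjusted p = 0.0179), whereas its neighbour AT5G41740, at 404 and 521 CPM against 271 and 276 CPM, was not called (log2 difference -0.76, edgeR adjusted p = 0.197). Of the 7 genes around RPS6 on chromosome 5, VICTR (log2 fold change -1.89, edgeR adjusted p = 0.00869), which is needed for a root response to the synthetic compound DFPM, and AT5G46490 (-1.33, edgeR adjusted p = 0.00537) were lower. AT3G44670 (-0.64, edgeR adjusted p = 0.0334) and the barely expressed AT5G38340, with 36 reads in wild type and 4 in camta3-D, complete the 16. The latter was not called when the 4 flg22 libraries were fitted alone.

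Rises were called for 3 members. AT5G40910 stood at 10.8 and 8.95 CPM in wild type and 23.9 and 31.0 CPM in camta3-D after flg22 (log2 fold change 1.47, edgeR adjusted p = 0.00588). AT1G63860 was at 138 and 108 CPM against 225 and 262 CPM (0.98, edgeR adjusted p = 0.00866), and AT1G63750 at 72.9 and 72.4 CPM against 130 and 152 CPM (0.95, edgeR adjusted p = 0.0342). The last 2 belong to a cluster on chromosome 1, of whose other tested genes AT1G63730, AT1G63740 and RLM1B none was called.

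The flg22 counts depended on single libraries. With wild type replicate 1, wild type replicate 2, camta3-D replicate 1 or camta3-D replicate 2 left out, 13, 6, 12 and 7 members were lower and 2, 0, 2 and 1 higher, and RPP5, AT1G56520, SOC3, CHS1, AT5G46490 and RMG1 were called in each of these fits.

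**Figure D2:**
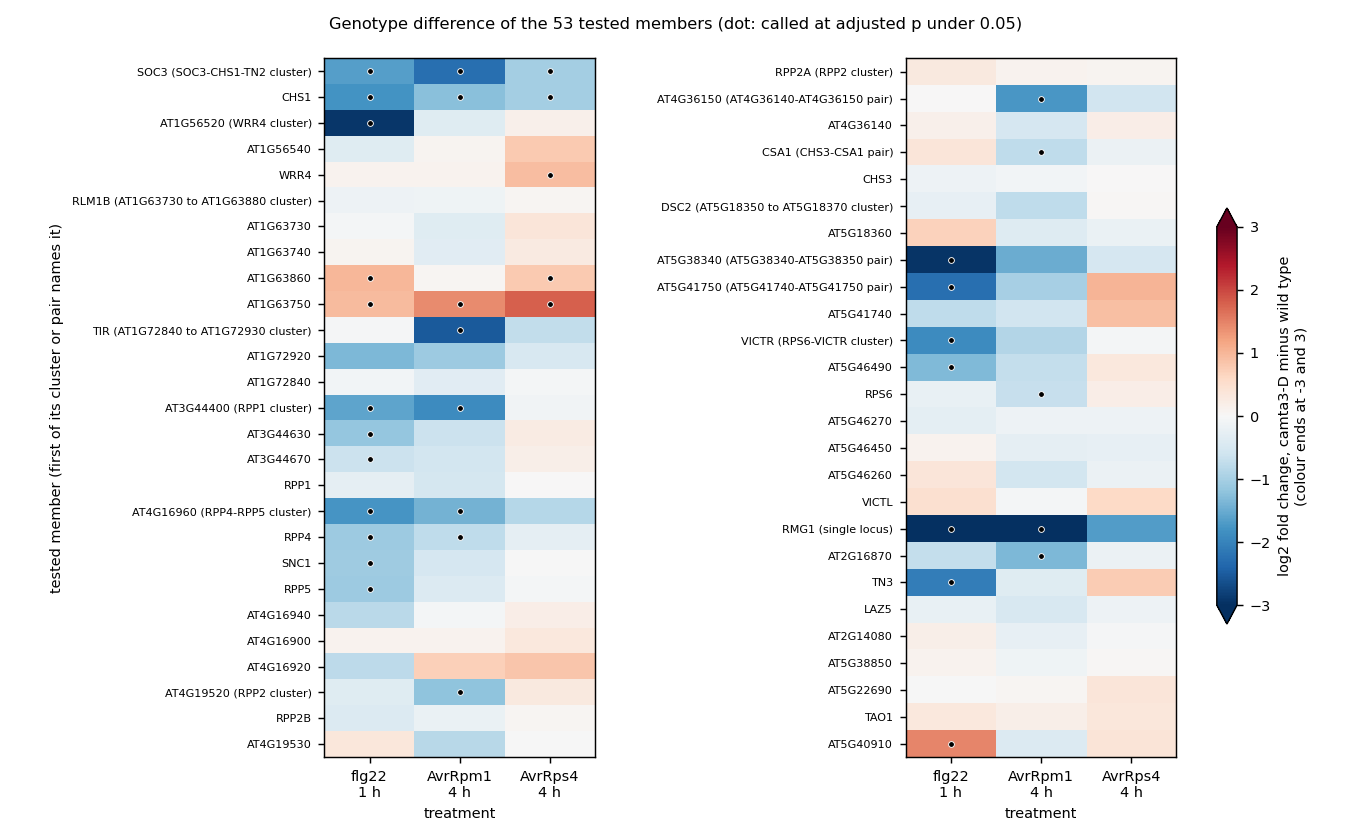
Log2 fold change, camta3-D minus wild type, of the 53 tested members (rows, grouped by cluster) after flg22 at 1 h, AvrRpm1 at 4 h and AvrRps4 at 4 h (columns), with blue for lower and red for higher in camta3-D and a dot where the member was called. The flg22 and AvrRpm1 columns hold 16 and 12 lower calls, the AvrRps4 column 2, and SOC3, CHS1 and AT1G63750 carry a dot in all 3 columns.

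After AvrRpm1, an effector sensed by the coiled-coil receptor RPM1, 12 of 53 members (22.6%) were lower in camta3-D and 1 (1.89%) higher, against 3.41% and 1.12% of all genes. The members' median log2 fold change was -0.47 and that of all tested genes 0.012, and 44 of the 53 values were negative. With the members over 20% repeated stretches left out, 9 of 39 were lower and 1 higher.

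TIR (AT1G72930, chr1:27439240-27440464, plus strand) stood at 264 and 127 CPM in wild type and 29.5 and 39.3 CPM in camta3-D after AvrRpm1. The wild-type replicates were far apart, and each was above both camta3-D libraries (log2 fold change -2.51 ± 0.31, SE, n = 2 and 2, edgeR adjusted p = 0.00357). After flg22 the same gene was at 122 and 129 CPM in wild type and 136 and 108 CPM in camta3-D, which overlap.

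SOC3 fell from 12.8 and 8.42 CPM to 1.99 and 2.45 CPM (log2 fold change -2.26, edgeR adjusted p = 0.00189), the smallest p among the members after AvrRpm1. AT4G36150 stood at 15.6 and 10.6 CPM in wild type and 3.37 and 4.47 CPM in camta3-D (-1.74, edgeR adjusted p = 0.00442), and its neighbour AT4G36140, at 17.1 and 16.3 CPM against 11 and 12.33 CPM, was not called (-0.52, edgeR adjusted p = 0.0558). AT3G44400 of the RPP1 cluster was at 13.5 and 8.84 CPM against 2.38 and 3.68 CPM (-1.89, edgeR adjusted p = 0.00721). In each of the 3 called genes the genotypes did not overlap, which restates these values and is not a further test.

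CHS1 (log2 fold change -1.26), AT4G16960 (-1.42), AT2G16870 (-1.34), AT4G19520 (-1.20), CSA1 (-0.76), RPP4 (-0.75) and RPS6 (-0.70) were lower with edgeR adjusted p values between 0.0146 and 0.0474, but RPP4 was not called with the replicate block. CSA1, which works with its divergent neighbour CHS3, stood at 33.1 and 29.8 CPM in wild type and 17.0 and 20.2 CPM in camta3-D. CHS3, a TNL with an added LIM domain, was at 31.5 and 33.7 CPM against 27.9 and 34.1 CPM and was not called. RPS6, which recognises the effector HopA1, was at 65.5 and 59.3 CPM against 35.5 and 41.3 CPM, and AT2G16870, also an immediate-early gene, at 9.75 and 7.22 CPM against 2.56 and 4.19 CPM. RMG1 was low in both genotypes, with 60 reads in wild type and 5 in camta3-D, a ratio of 11.4 with a 95% counting interval of 4.63 to 36.5 (edgeR adjusted p = 0.0337). AT1G63750 rose from 7.92 and 7.004 CPM to 14.4 and 25.6 CPM (log2 fold change 1.42, edgeR adjusted p = 0.0165).

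Without wild type replicate 1, wild type replicate 2, camta3-D replicate 1 or camta3-D replicate 2, there were 3, 10, 4 and 6 lower calls, and AT1G63750 was called only with camta3-D replicate 1 left out. SOC3, AT4G36150 and TIR were called each time. When the 4 AvrRpm1 libraries were fitted alone, 1 member, AT4G19520, was lower.

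After AvrRps4, an effector sensed by TNL receptors, few members differed between the genotypes: 3 of 53 (5.66%) were higher and 2 (3.77%) lower in camta3-D, against 2.49% and 2.44% of all genes. The median log2 fold change was 0.04 and that of all tested genes -0.002. The 4 libraries held 23725908 to 25237802 reads, and the members' replicates were further apart in wild type AvrRps4 than in the other groups, as given above.

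AT1G63750 stood at 10.9 and 15.04 CPM in wild type and 39.7 and 49.4 CPM in camta3-D after AvrRps4 (log2 fold change 1.78, edgeR adjusted p = 0.00837). WRR4 was at 27.5 and 39.5 CPM against 55.0 and 73.2 CPM (0.94, edgeR adjusted p = 0.0266), and AT1G63860 at 20.1 and 23.9 CPM against 34.6 and 41.7 CPM (0.79, edgeR adjusted p = 0.0297). All 3 genes were higher in each camta3-D library than in each wild-type library, which restates these values and is not a further test.

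SOC3 stood at 6.999 and 8.76 CPM in wild type and 3.48 and 4.25 CPM in camta3-D (log2 fold change -1.03, edgeR adjusted p = 0.0397), and CHS1 at 5.46 and 8.72 CPM against 3.86 and 3.16 CPM (-1.01, edgeR adjusted p = 0.0358). Neither was called in edgeR with the replicate block, which left 0 lower calls, or when the 4 AvrRps4 libraries were fitted alone. SNC1 and AT1G56520, which were lower after flg22, were not called here. SNC1 was at 206 and 275 CPM in wild type and 230 and 249 CPM in camta3-D, and AT1G56520 at 22.2 and 39.9 CPM against 26.9 and 42.4 CPM. RMG1 had 178 reads in wild type and 51 in camta3-D, a ratio of 3.21 with a 95% counting interval of 2.34 to 4.47, and was not called (edgeR adjusted p = 0.0576). Without wild type replicate 1, wild type replicate 2, camta3-D replicate 1 or camta3-D replicate 2, 0, 3, 1 and 0 members were higher and 1, 0, 0 and 0 lower.

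**Figure D3:**
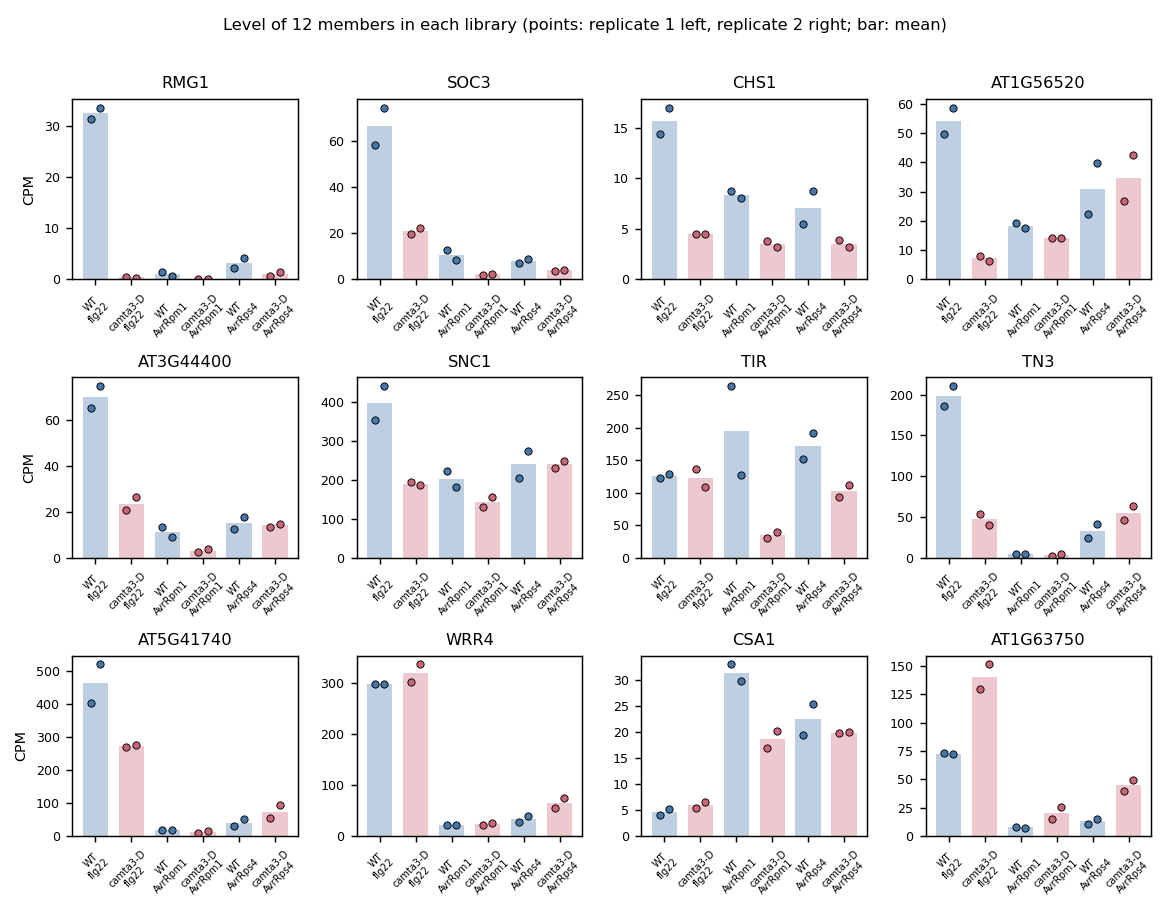
CPM of 12 members (vertical axes from 0, each with its own range) in the 6 groups, with a point for each library and a bar at the mean of 2. RMG1 is near 0 in camta3-D after flg22, TIR is lowest in camta3-D after AvrRpm1, AT5G41740 and WRR4 are high after flg22 in both genotypes, and AT1G63750 is higher in camta3-D than in wild type in each treatment.

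Averaged over the 3 treatments, 18 of 53 members (34.0%) were lower and 5 (9.43%) higher in camta3-D, against 10.5% and 10.3% of all genes, and the median log2 fold change was -0.20. Of the marker lists, 3 of 6 guard cell markers were lower and 3 of 6 mesophyll markers higher in this average. Also higher were 2 of 5 tested dividing cell markers and 1 of 6 epidermis markers. Of 2 tested root markers 1 was lower, and 0 of 6 phloem markers were called. Of the 16 members lower after flg22 and the 12 lower after AvrRpm1, which come from separate libraries, 6 were the same, 6 of 16 and 6 of 12: SOC3, CHS1, AT3G44400, RMG1, RPP4 and AT4G16960. These are 11.3% of the tested members, against 0.991% of all genes that were lower in both. In all, 22 members (41.5%) were lower and 4 (7.55%) higher in at least 1 treatment, and 27 (50.9%) were called in none, against 9.2%, 7.72% and 83.2% of all genes. SOC3 and CHS1 were lower in all 3 treatments and AT1G63750 was higher in all 3, but not all of these calls were made with single libraries left out. Of the 4 such fits after flg22, AvrRpm1 and AvrRps4, SOC3 was called in 4, 4 and 0, CHS1 in 4, 1 and 1, and AT1G63750 in 0, 1 and 2.

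In the average, SOC3 (log2 fold change -1.65, edgeR adjusted p = 0.000174), RMG1 (-3.76, edgeR adjusted p = 0.000192) and CHS1 (-1.36, edgeR adjusted p = 0.000338) had the smallest p among the lower members, and AT1G63750 (1.39, edgeR adjusted p = 0.000484) among the higher. These 4 calls were made with each of the 12 libraries left out, as were 16 of the 23 in all. Calls made only in the average were those of LAZ5 and TAO1. LAZ5, a receptor gene needed for the cell death of the acd11 mutant, was lower by a small amount (log2 fold change -0.28, edgeR adjusted p = 0.0188), and TAO1, which contributes to resistance to bacteria with AvrB, was higher (0.27, edgeR adjusted p = 0.0393), a call that was not made under DESeq2, under the replicate block or without the filter on low counts.

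DSC2, which with DSC1 is needed for the autoimmunity of plants that lack CAMTA3, was low and was not called. It stood at 1.80 and 2.08 CPM in wild type and 1.17 and 2.07 CPM in camta3-D after flg22, at 6.02 and 4.35 CPM against 3.27 and 2.88 CPM after AvrRpm1, and at 4.39 and 4.67 CPM against 3.97 and 5.34 CPM after AvrRps4. Only after AvrRpm1 did the genotypes not overlap (log2 difference -0.75, edgeR adjusted p = 0.144). RPP2A and RPP2B, a pair of genes that give downy mildew resistance only together, were not called in any treatment or in the average, and neither were RLM1B, CHS3, VICTL and RPP1.

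The difference between genotype effects was tested directly. Between AvrRpm1 and flg22, 4 of 53 members differed, against 0.563% of all genes. AT1G56520 was lower in camta3-D after flg22 and close to wild type after AvrRpm1, a difference of log2 effects of 2.55 ± 0.40 (SE, edgeR adjusted p = 0.0372). TIR (-2.47, edgeR adjusted p = 0.0454) and AT4G36150 (-1.76, edgeR adjusted p = 0.0454) were lower in camta3-D after AvrRpm1 but near wild type after flg22, and AT5G40910 was higher in camta3-D after flg22 and not called after AvrRpm1 (-1.87, edgeR adjusted p = 0.0354). With the replicate block 0 of these 4 calls were made, and 1 member was called with only the compared libraries fitted. Between AvrRps4 and flg22, AT1G56520 alone was called (3.07 ± 0.40, SE, edgeR adjusted p = 0.047), against 0.047% of all genes.

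Between AvrRpm1 and AvrRps4 the edgeR test called 0 members, against 0.0209% of all genes. At an unadjusted p under 0.05 there were 18 of 53 members, against 2981 of all 19167 genes. All 18 had the lower camta3-D effect after AvrRpm1. DESeq2 called 9 members, for which no share over all genes is given. The comparisons with flg22 use the same flg22 libraries, so AT1G56520 is not called independently in them. Each of these calls was lost when 1 of several libraries was left out: the AvrRpm1 count ranged from 0 to 3 and the AvrRps4 count from 0 to 4.

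The bacterial strains differed in what the members did. In wild type, 5 of 53 members were lower and 0 higher after AvrRpm1 than after AvrRps4, against 2.17% and 1.58% of all genes. At an unadjusted p under 0.05 the edgeR test gave 5 higher and 16 lower members, against 3814 of all 19167 genes in either direction. DESeq2 called 2 higher and 10 lower members, for which no share over all genes is given. In camta3-D, 29 of 53 (54.7%) were lower and 0 higher, against 12.4% and 10.5% of all genes. At an unadjusted p under 0.05 there, 36 members were lower and 0 higher, against 7037 of all 19167 genes in either direction. DESeq2 called 34 lower and 0 higher, again with no share over all genes, so the DESeq2 counts have no background to be read against. Wild type had a median log2 fold change of -0.25, camta3-D one of -0.76. All 5 members called in wild type were also called in camta3-D, where 12.4% of all genes were lower. The share of all genes called in both genotypes was not computed. The genotypes use separate libraries, but these were fitted together with a shared estimate of spread. Whether the strain difference was larger in camta3-D is the same contrast as the difference of genotype effects above, in which no member was called.

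TN3 stood at 4.95 and 3.86 CPM after AvrRpm1 and 23.7 and 40.9 CPM after AvrRps4 in wild type, and at 2.02 and 4.82 CPM against 46.1 and 63.6 CPM in camta3-D. The strains were far apart in both genotypes, with log2 fold changes of -2.87 (edgeR adjusted p = 0.00732) and -4.01 (edgeR adjusted p = 0.000671). AT5G41750 was at 16.9 and 8.95 CPM against 50.9 and 96.95 CPM in wild type and at 3.69 and 9.37 CPM against 111 and 187 CPM in camta3-D (log2 fold changes -2.52 and -4.52, edgeR adjusted p = 0.0225 and 0.00101). AT1G72920, a neighbour of TIR, was at 5.63 and 3.75 CPM against 21.9 and 37.1 CPM in wild type and at 1.14 and 3.32 CPM against 18.1 and 24.4 CPM in camta3-D, again without overlap (-2.65 and -3.27, edgeR adjusted p = 0.0139 and 0.00205). AT3G44630 (-1.25, edgeR adjusted p = 0.0228) and RPP4 (-0.81, edgeR adjusted p = 0.0411) complete the wild-type calls.

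In camta3-D, AT3G44630 fell by 2.13, AT3G44400 by 2.23, AT4G19520 by 2.31 and WRR4 by 1.49 on the log2 scale after AvrRpm1 relative to AvrRps4, with edgeR adjusted p values between 0.00101 and 0.00141. All 4 members of the RPP1 cluster and all 3 tested genes around WRR4 were lower, and 4 of 7 in each of the SNC1 and RPS6 clusters. Of the 29 calls, 16 were made with each library left out. The counts were 18, 26, 22 and 18 without AvrRpm1 replicate 1, AvrRpm1 replicate 2, AvrRps4 replicate 1 or AvrRps4 replicate 2. In wild type the corresponding counts were 0, 1, 6 and 1, and none of the 5 calls was made in every fit. In wild type, 49 of 53 members were higher in AvrRps4 replicate 2 than in replicate 1, and 38 were lower in AvrRpm1 replicate 2. The part of these differences in the calls was not tested.

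**Figure D4:**
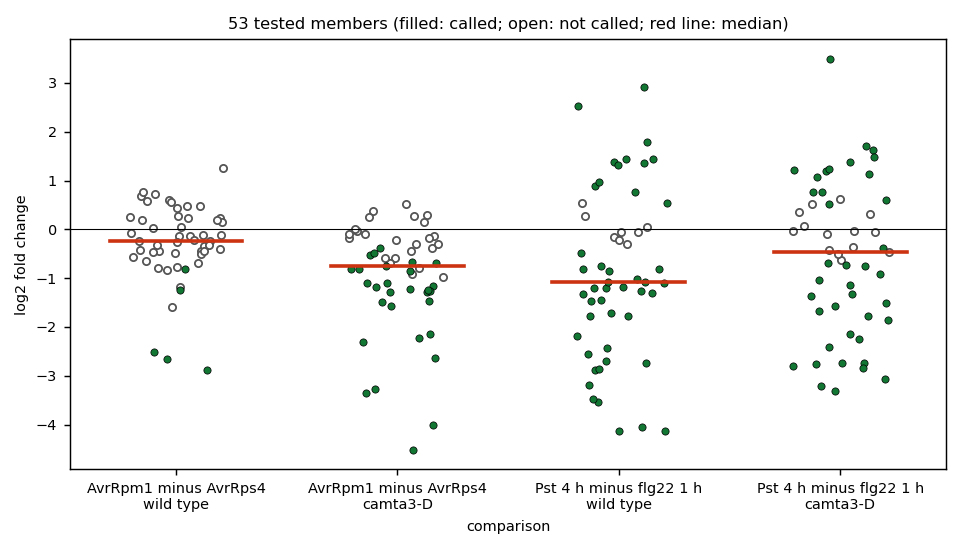
Log2 fold change of the 53 tested members (points) for AvrRpm1 minus AvrRps4 and for Pst at 4 h minus flg22 at 1 h, in wild type and camta3-D, with filled points for called members and a red line at the median. The median is -0.25 and -0.76 for the strains in wild type and camta3-D and -1.07 and -0.47 for Pst against flg22, and no filled point lies above 0 for the strains.

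Most members differed between Pst at 4 h and flg22 at 1 h, in which elicitor and time cannot be told apart. In wild type, 33 of 53 (62.3%) were lower and 12 (22.6%) higher with the mean of both Pst strains, against 34.3% and 36.8% of all genes, and the median log2 fold change was -1.07 where that of all tested genes was 0.047. In camta3-D, 25 (47.2%) were lower and 14 (26.4%) higher, against 32.5% and 33.9%, with a median of -0.47. Mesophyll markers summed to 26300 to 39500 CPM in the Pst libraries and 40500 to 49800 CPM in the flg22 libraries, and 5 of 6 were lower with Pst in each genotype. The other marker, LHCB2.1, was higher with Pst in wild type (log2 fold change 0.53, edgeR adjusted p = 0.00106). In camta3-D it was not called (0.15). Both tested root markers, SCR and SHR, were higher with Pst (log2 fold changes 1.65 to 2.84), and the list summed to 27.0 CPM or more in each Pst library and 10 CPM or less in each flg22 library. The part of these markers in the members' differences was not tested. In both genotypes 23 members were lower and 10 higher. The share of all genes called in the same direction in both was not computed, so these 2 counts have no background. AT1G56520 alone was lower with Pst in wild type (log2 fold change -1.18) and higher in camta3-D (1.63).

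AT5G41740 stood at 404 and 521 CPM in wild type and 271 and 276 CPM in camta3-D after flg22, and between 7.63 and 92.7 CPM in the 8 Pst libraries. Its log2 fold changes were -4.14 in wild type and -3.21 in camta3-D (edgeR adjusted p = 1.23e-06 and 7.84e-06). WRR4, which gives resistance to white rust, was between 298 and 336 CPM in the 4 flg22 libraries and between 20.9 and 73.2 CPM in the Pst libraries, with log2 fold changes of -3.48 and -3.06 (edgeR adjusted p = 6.51e-08 and 1.41e-07). The groups were well separated in both. AT5G22690 (-3.54 and -3.32), SOC3 (-2.86 and -2.84) and AT1G63860 (-2.19 and -2.75) were also among the members with the smallest p in wild type.

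Higher members included CSA1, at 4.10 to 6.47 CPM in the 4 flg22 libraries and 17.0 to 33.1 CPM in the Pst libraries (log2 fold changes 2.52 in wild type and 1.70 in camta3-D, edgeR adjusted p = 5.84e-07 and 8.32e-06). CHS3, its partner, stood at 34.2 to 39.6 CPM after flg22 and 27.9 to 36.5 CPM after Pst, and was not called in either genotype. TAO1 was at 4.98 to 7.15 CPM after flg22 and 11.5 to 22.7 CPM after Pst (1.44 and 1.38, edgeR adjusted p = 4.9e-06 and 7.41e-06), and RPP2A at 18.0 to 23.9 CPM against 35.3 to 43.4 CPM (0.96 and 0.76, edgeR adjusted p = 5.15e-06 and 3.11e-05). In these last 2 genes the lowest Pst library was above the highest flg22 library. These comparisons use all libraries of a genotype, and 41 of the 45 wild-type calls and 35 of the 39 camta3-D calls were made with each library left out.

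Genes that act with TIR-type receptors were described from a list of 14. Of these, 8 (57.1%) were lower in camta3-D after flg22, 5 (35.7%) after AvrRpm1, 1 (7.14%) after AvrRps4 and 10 (71.4%) in the average, against 5.59%, 3.41%, 2.44% and 10.5% of all genes. Among the 8 was NRG1.3 (log2 fold change -7.14, edgeR adjusted p = 0.0424), a value near the floor. Its log2 difference was 0 in both Pst treatments, and 1 of the 14 genes was under 1 CPM in each library. PAD4, a partner of EDS1, was lower after flg22 and AvrRpm1 (log2 fold changes -2.52 and -2.90, edgeR adjusted p = 0.0191 and 0.0195), and the helper receptor ADR1-L1 in the same treatments (-0.97 and -1.26, edgeR adjusted p = 0.0439 and 0.0292). EDS1 was called in the average only (-1.09, edgeR adjusted p = 0.0155). SGT1B, a cochaperone of receptor proteins, was lower in all 3 treatments (-0.50, -0.54 and -0.49). Of 12 tested genes that control the level or activity of SNC1, 1 was higher after flg22 (MOS3, a nucleoporin, 0.46, edgeR adjusted p = 0.0165) and 2 after AvrRps4 (CDC5 and MOS7, 0.51 and 0.55), while CPR1, the F-box protein that targets SNC1 for breakdown, was not called. These are 8.33% and 16.7% of the list, against 5.21% and 2.49% of all genes, and the flg22 share rests on 1 gene near that background.

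Coiled-coil receptor genes form the other large class of intracellular receptors, and of 33 tested, 5 (15.2%) were lower in camta3-D after flg22, 5 (15.2%) after AvrRpm1, 0 after AvrRps4 and 14 (42.4%) in the average, against 5.59%, 3.41%, 2.44% and 10.5% of all genes. In the strain comparison in camta3-D 4 (12.1%) were lower after AvrRpm1, close to the 12.4% of all genes, and 29 of 53 TIR-type members (54.7%) were. Their median level per kb after flg22 was 3.16 in wild type, below the 9.25 of the TIR-type members, and after AvrRpm1 it was 4.64 against 3.85. The difference between the classes was not tested.

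The 7 members too low to test had between 2 and 46 reads over all 12 libraries. AT1G72860 had 46 and was seen in each library, at 1 to 7 reads. TN2 had 21 reads, all of them in wild type: after AvrRpm1 and AvrRps4 the wild-type groups held 3 and 2 reads and camta3-D 0. AT5G18350 had 19 reads, 16 of them in 1 library, AT1G63870 had 18, and AT3G51560, AT3G51570 and AT5G38350 had 6, 2 and 6. At this depth no difference between groups was detectable for these genes, apart from the bound given for TN2.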

How the data were processed

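Leaf polyA RNA of 12 samples was sequenced. The deposited table holds raw read counts per gene, which the authors made with TopHat2 2.0.10 and HTSeq on TAIR10 after FastQC 0.11.2 (submitters' processing notes), and its 5 summary lines were left out. The counting mode and strand setting are not given in the sources used here. The members and lists were chosen with earlier results of these data known. Genes were filtered with filterByExpr (minimum count 10), scaled by TMM and fitted over 12 libraries with 6 group means (edgeR 4.0.16, R 4.3.3, quasi-likelihood, two-sided, common biological coefficient of variation 0.15). Adjusted p-values cover 19167 genes and measure only the spread between these libraries. In simulated data with known changes, 53% of 2-fold and 89% of 4-fold changes were recovered for the flg22 genotype comparison. For the average the shares were 90% and 98%. A member that was not called can therefore still differ. CPM used effective library sizes, and each SE is the log2 fold change divided by the square root of its F statistic. Deviations of same-numbered libraries were weakly correlated between groups (-0.182 to 0.0983). This does not exclude a pairing of the libraries, and the main fit used none. The promoter window is the 250 bases before the annotated start. Alternatives were median-ratio factors, DESeq2 1.42.0, no filter, a replicate block, the compared libraries alone and each library left out, where a lone library is assumed to vary like the other groups. Named were the 6 members (4 in strain and Pst comparisons) with the smallest p in each direction, called members with a log2 change over 1, those with published names, the study's immediate-early members and the 3 highest and lowest levels per kb. Intervals and floors cover counting error only.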

Additional observations from a re-analysis of the deposited data

Results flagged for a closer look

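The genotype effect differed between treatments, by a test of the difference itself, in 5 cases. For AvrRpm1 against flg22 the differences of log2 effects were 2.55 for AT1G56520, -2.47 for TIR, -1.76 for AT4G36150 and -1.87 for AT5G40910. For AvrRps4 against flg22 the difference was 3.07 for AT1G56520. The calls between AvrRpm1 and flg22 were all lost with the replicate block, and none of the 5 was made with each library left out.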

How the results depend on the processing

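No called difference turned its direction under any alternative. Values near 0 that were not called did in part: the median over members after AvrRps4, 0.04, became -0.061 with replicate 1 of wild type left out, and -0.073 with replicate 2 of camta3-D left out. The counts that moved by over 1.5 times were these. With only the compared libraries fitted, AvrRpm1 gave 0 higher and 1 lower member, AvrRps4 1 higher and 0 lower, the strains in wild type 3 calls, and the differences from the flg22 genotype effect 1 (AvrRpm1) and 4 (AvrRps4). With the replicate block, AvrRps4 gave 0 lower members and the AvrRpm1 difference 0 calls; all other counts of calls stayed within 1.5 times. DESeq2 called 12 members between the strains in wild type, 7 and 13 for the AvrRpm1 and AvrRps4 differences from flg22, and 9 between the AvrRpm1 and AvrRps4 genotype effects. Without the filter on low counts the AvrRps4 difference gave 5 calls. The cause was not tested. In the strain comparison in wild type the deviations of same-numbered libraries had a weak negative correlation over genes (-0.182). The block with exchanged AvrRps4 numbers, chosen after seeing the data, gave 5 calls where the block as labelled gave 4. With each library left out, the ranges were 0 to 2 higher and 6 to 13 lower after flg22, 0 to 1 and 3 to 10 after AvrRpm1, 0 to 3 and 0 to 1 after AvrRps4, 2 to 5 and 14 to 20 in the average, 0 to 6 and 18 to 26 calls between strains in wild type and camta3-D, 42 to 44 and 37 to 39 for Pst against flg22, and 0 to 3, 0 to 4 and 0 to 0 for the differences of genotype effects (AvrRpm1 and AvrRps4 from flg22, and AvrRpm1 from AvrRps4). With 2 libraries a group, calls near the threshold depend on single libraries, and members under 1 CPM had few reads to compare.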

Other observations

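Of the pairs of neighbouring receptor genes, several were not called together. CSA1 was higher with Pst than with flg22 in both genotypes while CHS3 was not called, with log2 differences of 2.52 and -0.21 in wild type. AT1G56520 and WRR4 had log2 genotype differences of -2.91 and 0.10 after flg22. The differences within a pair were not tested.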
